A study of Mus musculus with 57 samples.

Results

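The Slit, Robo and Slitrk guidance genes were followed as 9 of the 56860 genes listed in mouse RNA-seq tables. They were the ligand genes Slit1, Slit2 and Slit3, the receptor genes Robo1, Robo2 and Robo4, and the transmembrane protein genes Slitrk2, Slitrk5 and Slitrk6, found by name in the count and TPM tables. Slitrk6 was included because its level had been seen to be lower in mutant lung at E12.5 (E, embryonic day) but not at E15.5. It was thus chosen by the lung values given here, which are a description and carry no test. The libraries came from whole embryonic tissues of wild-type (wt) and Hoxa5-/- mice of the 129/Sv background, 1 RNA-seq library per sample. Trachea at E15.5, lung at E12.5 and E15.5, diaphragm at E15.5 and somites at E12.5 had 4 libraries per genotype. Somites at E10.5 had 4 wt and 3 mutant libraries, and iBAT, the brown fat pad between the shoulder blades, had 5 per genotype at E18.5. The mutants carried the null allele Hoxa5tm1Rob in both copies, in which a neomycin cassette interrupts the homeobox, so that reads over the rest of Hoxa5 are still counted.

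Slits are large secreted proteins that bind Robo receptors on growing axons and migrating cells and usually repel them. The pair is known from the ventral midline of the spinal cord and also acts outside the nervous system, for example in the lung, in blood vessels and in the diaphragm, where mice without Slit3 have a hernia. Robo4 is the endothelial member of its family. Slitrks are membrane proteins with leucine-rich repeats like those of Slits, and they help to form synapses by binding receptor tyrosine phosphatases.

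The series as a whole was checked on a few points. Libraries held between 18369905 and 72991481 counts. Hoxa5 was at 44.1 TPM or more in every wt library and was lower in every mutant library than in each wt library of its own tissue and stage (85.2 to 112 TPM in mutant somites at E10.5 and 9.84 to 16.2 in mutant iBAT). Trachea, lung and diaphragm were sequenced as single-end reads of 100 bases at one centre and somites and iBAT as paired-end reads of 150 bases at another, so that a difference between these sets cannot be told apart from the centre, and tests were run only within a set. Xist, the RNA of the inactive X chromosome, was at most 1.53 TPM in the lowest library and at least 97.0 TPM in the highest library of each of the 14 groups. In lung at E15.5, mutant replicate 4 stood apart: it had the lowest Slit2, Slit3, Robo1, Robo2 and Robo4 and the highest Slitrk2 and Slitrk5 of the 4 mutant libraries, and its summed blood endothelium markers were 772 TPM against 1202 to 1321 in the other 3. It was also the shallowest lung library at E15.5, with 20692978 counts, and the study's read summary lists smaller shares of mapped and of assigned reads for it than for the other lung libraries of that stage.

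The genes lie on 7 chromosomes in GRCm39. Slit1 is on chr19:41588696-41732104, Slit2 on chr5:48140480-48465075 and Slit3 on chr11:35012051-35599334. Robo1 and Robo2 sit 846 kb apart on chromosome 16, and Robo4 on chr9:37313193-37326411 ends 553 bases from the end of its relative Robo3. Slitrk2 is on the X chromosome, and Slitrk5 and Slitrk6 are 920 kb apart on chromosome 14 with 0 protein-coding genes between them. No other gene touched an exon of these 9, so their counts are not shared with an overlapping gene. Slit2 and Slit3 each hold the hairpin of a microRNA in an intron, and both hairpins give the same mature product, shown here with its seed (bases 2 to 8) in capitals as RefSeq gives it.
mmu-miR-218-5p: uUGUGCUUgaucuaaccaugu
Reads over these hairpins summed to 19 for Mir218-1 and 199 for Mir218-2 over the 57 polyA-selected libraries, which does not measure the mature microRNA.

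Slit3 and Slitrk6 are the members whose levels between genotypes and tissues are followed most closely here, so the 250 bases before their start sites are shown, from RefSeq on GRCm38.p6. Capitals mark TAAT, the core letters many homeodomain proteins recognise, read on either strand (TAAT or ATTA).
Slit3, chr11:35121206-35121455, plus strand: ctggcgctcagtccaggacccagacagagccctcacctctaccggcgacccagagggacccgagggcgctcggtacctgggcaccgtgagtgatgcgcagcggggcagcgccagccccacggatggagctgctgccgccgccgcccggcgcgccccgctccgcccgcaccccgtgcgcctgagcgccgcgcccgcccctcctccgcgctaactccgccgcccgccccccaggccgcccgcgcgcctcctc
Slitrk6, chr14:110755150-110755399, minus strand: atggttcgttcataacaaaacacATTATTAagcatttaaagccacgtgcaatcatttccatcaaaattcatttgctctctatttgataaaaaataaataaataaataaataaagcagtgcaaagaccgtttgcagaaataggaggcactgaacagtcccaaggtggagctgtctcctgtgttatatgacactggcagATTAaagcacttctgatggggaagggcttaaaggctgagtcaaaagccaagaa
The Slit3 stretch is 78.8% G and C, with 35 CG pairs and 0 matches to TAAT. The Slitrk6 stretch is 37.2% G and C, with 3 CG pairs and 3 matches to TAAT, a pair of which overlap. Over 32807 promoters of this length the median was 52.4% G and C, and 54.9% held TAAT on either strand. TGATTNAT, a motif for Hox proteins with their Pbx partners, had 0 matches in both stretches and was in 2.83% of all promoters.

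The ligand genes differed in where they were highest. Slit1 was highest in somites at E10.5. Its wt libraries read 28.8, 34.0, 44.5 and 30.7 TPM in somites at E10.5 and 3.20, 2.15, 5.52 and 2.40 TPM at E12.5. All other wt group means were under 3 TPM, with 2.43 ± 0.52 TPM (SD, n = 4) in diaphragm next in order, a group that overlapped somites at E12.5. Slit2 was at 29.5 ± 2.5 TPM (SD, n = 4) in somites at E10.5 and at 29.3 ± 4.0 TPM (SD, n = 4) in lung at E15.5, and these groups overlapped. The next groups of Slit2, from somites at E12.5 at 13.5 ± 2.6 TPM down to lung at E12.5 at 8.13 ± 0.77 TPM (SD, n = 4 each), each overlapped its neighbour in the order, and iBAT was at 0.12 ± 0.03 TPM (SD, n = 5).

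Slit3 was the most abundant member in wt trachea, lung and diaphragm on the TPM scale, which corrects for gene length. Its wt mean was 99.8 ± 4.8 TPM in lung at E12.5, with no overlap with the next group, trachea, at 76.4 ± 16.3 TPM. Trachea overlapped lung at E15.5 at 64.3 ± 5.3 TPM. Somites followed at 47.9 ± 8.3 TPM at E12.5 and 30.1 ± 3.6 TPM at E10.5, and the latter overlapped diaphragm at 22 ± 5.9 TPM (SD, n = 4 for all of these). iBAT was lowest, at 6.26 ± 1.4 TPM (SD, n = 5).

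Among the receptor genes, Robo1 was at 53.0 ± 9.8 TPM in wt somites at E12.5, at 43.8 ± 1.9 TPM in lung at E12.5 and at 42.2 ± 2.2 TPM in lung at E15.5 (SD, n = 4 each), and neighbours in this order overlapped. Robo2 was highest in wt lung at E15.5, at 25.1 ± 1.1 TPM (SD, n = 4), above every library of the next group. Both were under 1 TPM in iBAT, at 0.56 ± 0.14 TPM for Robo1 and 0.35 ± 0.13 TPM for Robo2 (SD, n = 5). Robo4 behaved differently from them: it was at 51.7 ± 1.3 TPM in wt lung at E15.5, and the next 5 groups, from lung at E12.5 to trachea, lay between 17.1 and 21.9 TPM, each overlapping its neighbour. Its iBAT mean of 19.8 ± 2.6 TPM (SD, n = 5) was the highest of any member there, and its lowest group was somites at E10.5 at 8.41 ± 1.19 TPM (SD, n = 4).

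Of the Slitrk genes, Slitrk6 was highest in wt lung at E12.5, at 78.0 ± 8.0 TPM (SD, n = 4), above every library of the next group, trachea. Trachea at 25.3 ± 3.5 TPM and lung at E15.5 at 25 ± 3.0 TPM overlapped (SD, n = 4 each). Diaphragm was at 6.71 ± 1.99 TPM (SD, n = 4) and iBAT at 1.4 ± 0.32 TPM (SD, n = 5). Slitrk2 and Slitrk5 were at 7.02 ± 0.61 and 9.57 ± 1.69 TPM in wt somites at E10.5 and at 3.61 ± 0.57 and 6.18 ± 2.31 TPM in trachea (SD, n = 4 each). In wt lung at E15.5 they were at 0.24 ± 0.18 and 0.30 ± 0.07 TPM (SD, n = 4 each). In total 9 members reached a mean of 1 TPM in wt somites at either stage, 8 in trachea, lung at E12.5 and diaphragm, 6 in lung at E15.5 and 3 in iBAT, where these were Robo4, Slit3 and Slitrk6.

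**Figure D1:**
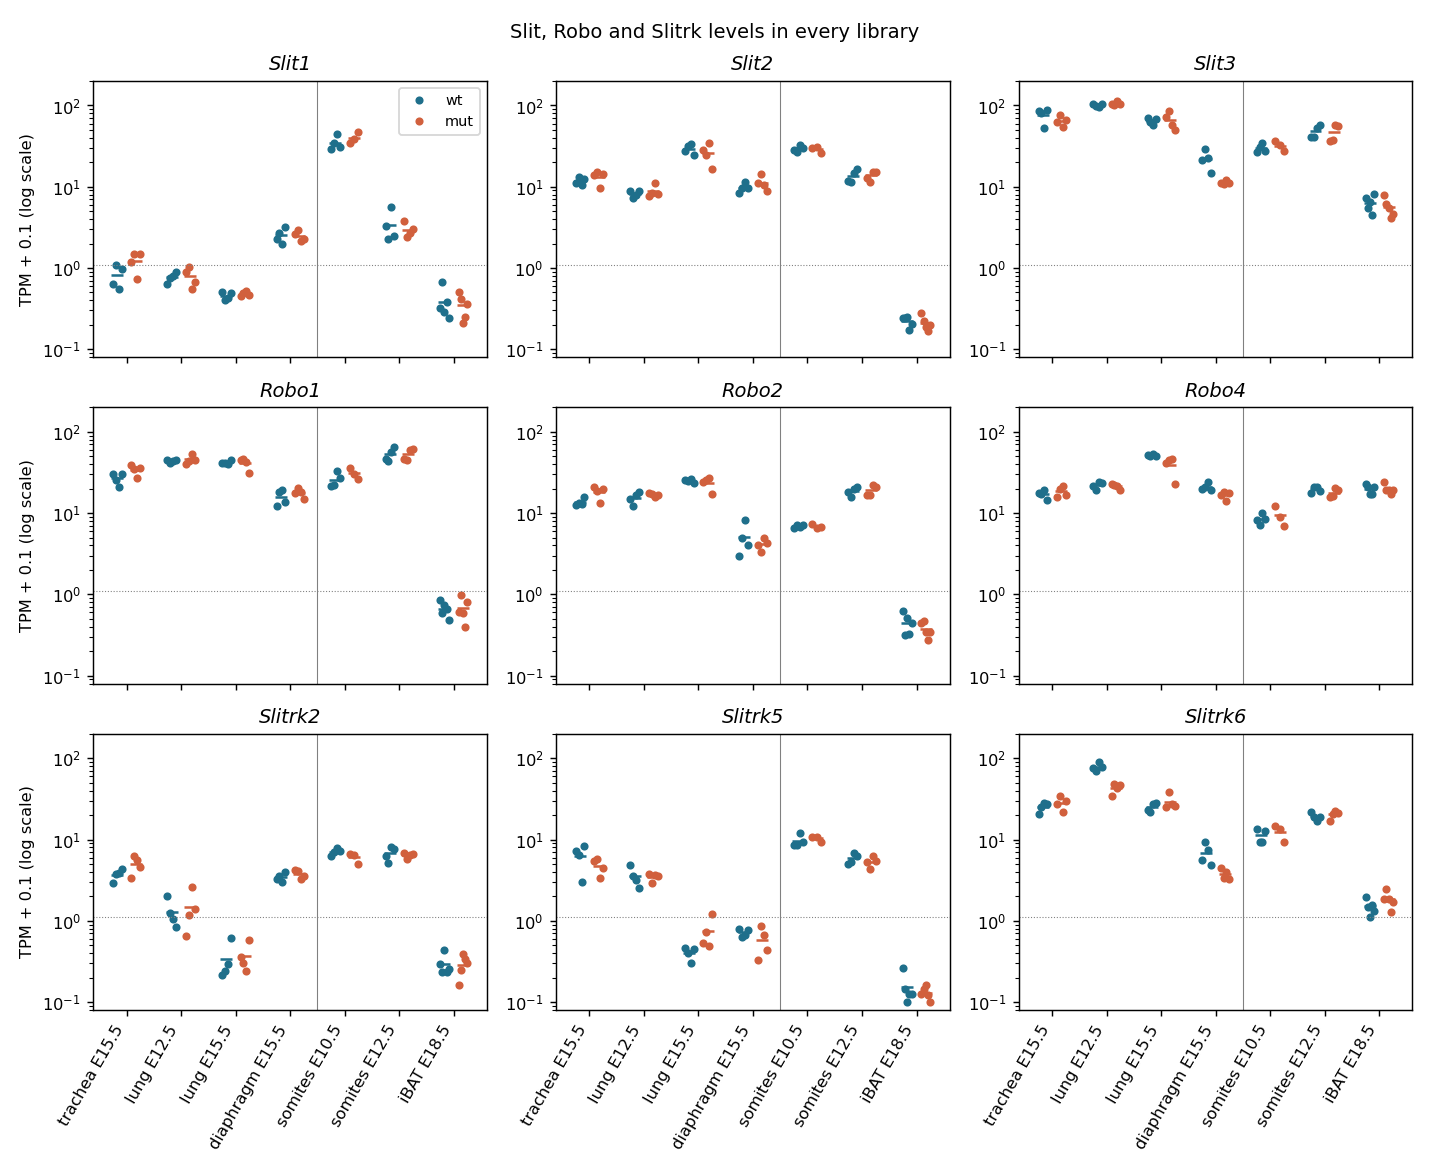
TPM plus 0.1 on a log scale for each of the 9 genes in every library, by tissue and stage, with wt and mutant libraries as points group means as short lines, a dotted line at 1 TPM and a vertical line between the sets from the 2 sequencing centres. Slit1 stands highest in somites at E10.5, Slitrk6 in wt lung at E12.5, and Robo4 keeps a level near 20 TPM in iBAT where most others are under 1 TPM.

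The change with stage was tested in wt lung, among genes with a mean of at least 1 TPM in either group, with calls at an adjusted p under 0.05 and a fold of at least 1.5 (edgeR's quasi-likelihood test). From E12.5 to E15.5, 6 of 7 tested members were called against 24.6% of all genes tested, 3 higher (15.4% of all genes) and 3 lower (9.15%). Slit2 rose from 8.77, 7.13, 7.91 and 8.71 TPM to 27.3, 31.6, 33.5 and 24.7 TPM, a 3.52-fold change (log2 1.81, SE 0.10, adjusted p = 1.05e-06 by edgeR). Slit3 fell over the same days by 0.67 on the log2 scale (SE 0.06, edgeR adjusted p = 1.90e-05), so that the pair of ligands moved in opposite directions. Of the receptors, Robo4 rose 2.31-fold (edgeR adjusted p = 9.31e-07) and Robo2 1.60-fold (edgeR adjusted p = 0.000225), while Robo1 differed by -0.09 on the log2 scale (SE 0.05, edgeR adjusted p = 0.164). Slitrk5 fell by 3.52 (SE 0.27, edgeR adjusted p = 4.82e-06) and Slitrk2 by 2.42 (SE 0.47, edgeR adjusted p = 0.00173) on the log2 scale to levels under 1 TPM, and Slitrk6, not tested here, was 3.20-fold lower. Summed blood endothelium markers, which moved with Robo4, were between 678 and 843 TPM in wt lung at E12.5 and between 1413 and 1716 TPM at E15.5, and their part in the rise of Robo4 was not tested. In bulk tissue, more cells of a type and more RNA per cell cannot be told apart.

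Tissues at E15.5 were compared in wt libraries of the same set. Against lung, 6 of 7 tested members were called in trachea (30.2% of all genes, 20.1% higher and 10.1% lower) and 7 of 7 in diaphragm (36.4% of all genes, 20.9% higher and 15.6% lower). Slit2, Robo1, Robo2 and Robo4 were lower than in lung in both tissues: by 1.37, 0.70, 0.91 and 1.63 on the log2 scale in trachea and by 1.30, 1.13, 2.04 and 0.99 in diaphragm. The largest differences were in the other direction. Slitrk2 was 15.1-fold higher in trachea (edgeR adjusted p = 8.76e-05) and 18.1-fold higher in diaphragm (edgeR adjusted p = 2.58e-05) than in lung, and Slitrk5 was 19.5-fold higher in trachea (edgeR adjusted p = 1.74e-05). Slit1 was 8.40-fold higher in diaphragm than in lung (edgeR adjusted p = 3.35e-06), although at 1.89 to 3.08 TPM and 84 to 184 counts per library it was a low signal. Slit3 was lower in diaphragm by 1.25 (SE 0.16, edgeR adjusted p = 0.000135) and differed in trachea by 0.21 (SE 0.15, edgeR adjusted p = 0.265) on the log2 scale.

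Between diaphragm and trachea, 6 of 9 members were called, against 32.5% of all genes (14.1% higher and 18.4% lower). Slit1 (4.21-fold) and Robo4 (1.51-fold) were higher in diaphragm, and Slit3, Robo2, Slitrk5 and Slitrk6 were lower, with Slitrk5 8.02-fold lower at 0.53 to 0.70 TPM against 2.92 to 8.25 TPM. Robo4 stood just past the fold limit and fell short of it without trachea replicate 4 (log2 0.52, edgeR adjusted p = 0.00281). Slit2 was at 8.35 to 11.2 TPM in diaphragm and 10.3 to 12.97 TPM in trachea, a log2 difference of 0.02 (SE 0.09). Summed neuron markers were 247 to 543 TPM in wt trachea, 25.7 to 58.3 TPM in wt diaphragm and 14.7 to 16.97 TPM in wt lung at E15.5, and their part in these differences was not tested.

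In wt somites, 8 of 9 members were called from E10.5 to E12.5, against 42.6% of all genes (24.1% higher and 18.4% lower). Slit1 fell 10.9-fold (log2 -3.44, SE 0.24, edgeR adjusted p = 2.98e-08) and Slit2 2.28-fold (edgeR adjusted p = 8.25e-07), and Slitrk5 fell by 0.79 on the log2 scale (SE 0.14). Higher at E12.5 were Robo1 (1.97-fold), Robo2 (2.62-fold), Robo4 (2.24-fold), Slitrk6 (1.63-fold) and Slit3 (1.52-fold). The Slit3 rise passed the fold limit narrowly and missed it without any 1 of E10.5 replicates 1 and 4 and E12.5 replicates 3 and 4, with log2 values of 0.50 to 0.58. Robo3, the relative of Robo1 that is known from commissural neurons of the spinal cord, went from 25.4 to 54.9 TPM at E10.5 to 0.26 to 1.12 TPM at E12.5 (log2 -6.13, SE 0.36, edgeR adjusted p = 6.37e-09). All 8 markers of motor and dorsal spinal neurons fell in the same comparison, their sum being 229 to 283 TPM at E10.5 and 18.52 to 40.1 TPM at E12.5, although somites had been dissected away from the neural tube. The part of these markers in the falls of Slit1 and Slit2 was not tested.

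iBAT at E18.5 was compared with somites at E12.5, the latest stage of the tissue its precursors come from, so that stage and tissue cannot be told apart. All 9 members were called, against 66.3% of all genes (31% higher and 35.3% lower), in a comparison whose median over all genes was -0.16 on the log2 scale. Robo4 was the only member that was higher, 2.32-fold on the scale of normalised counts (edgeR adjusted p = 1.57e-08), while its TPM means were 19.8 and 19.7, and its TPM libraries overlapped. The other 8 were lower, by 1.74 (Slit3) to 5.58 (Slit2) on the log2 scale. Slit2 read 0.14, 0.14, 0.15, 0.07 and 0.11 TPM in the 5 wt iBAT libraries, or 13 to 30 counts each. On the same scale of normalised counts as Robo4, 9 of 12 blood endothelium markers were also higher in iBAT and 0 lower, and all 10 neuron markers were lower.

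**Figure D2:**
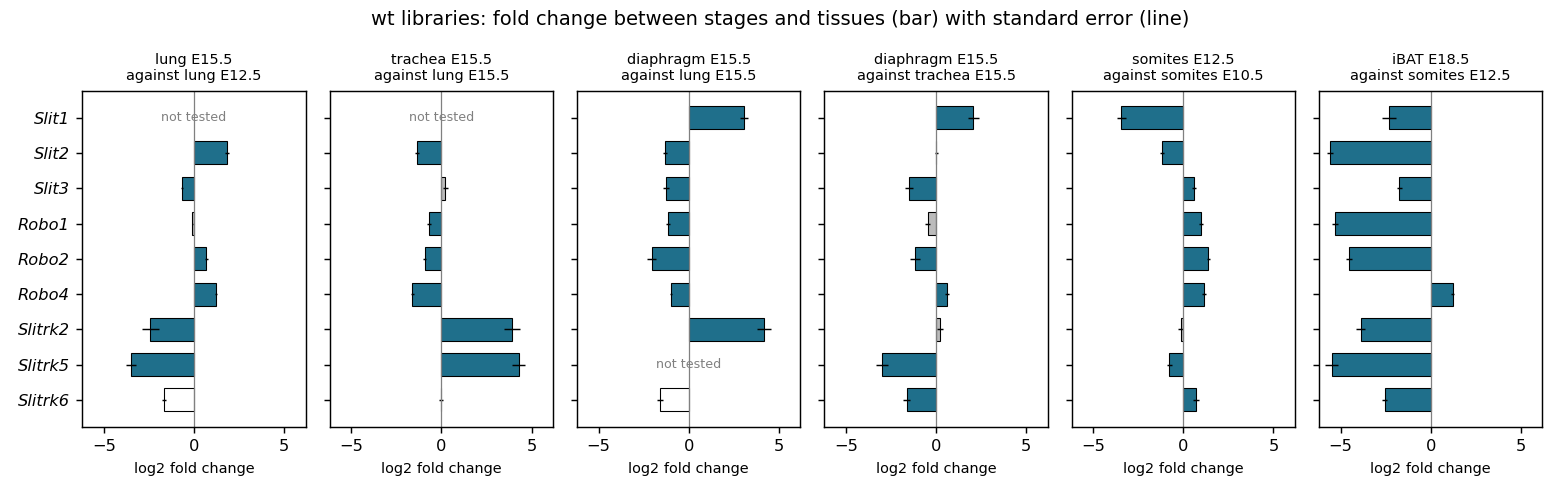
Log2 fold change (bars) with its standard error (lines) for each gene in 6 comparisons of wt libraries. Blue bars passed the adjusted p and fold limits, grey bars did not, and white bars are Slitrk6 in comparisons with lung, shown without a test. Slitrk2 and Slitrk5 differ most between lung and trachea. On this scale of normalised counts Robo4 is the only gene above 0 in iBAT, while its TPM libraries overlapped.

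Genotypes were compared within each tissue and stage. In diaphragm 1 of 8 tested members was called, against 0.594% of all genes tested (0.488% lower), and this was Slit3 (DESeq2 called 2, Slit3 and Slitrk6). Slit3 read 21.3, 29.1, 22.7 and 14.9 TPM in wt diaphragm and 11.02, 10.8, 12.01 and 11.1 TPM in the mutant libraries. Every mutant library was below every wt library, and the mutant mean was 51.1% of the wt mean. The log2 fold change was -0.97 (SE 0.16, edgeR adjusted p = 0.0412). The call depended on single libraries. Without any 1 of wt replicates 1 to 3 or of the 4 mutant libraries edgeR's adjusted p lay between 0.0679 and 0.152, with log2 values from -0.998 to -0.82, and without wt replicate 4 it was 0.00632.

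Slitrk6 was also lower in mutant diaphragm. It read 5.57, 9.24, 7.26 and 4.75 TPM in wt and 4.39, 3.22, 3.89 and 3.15 TPM in mutant libraries, with no overlap, at 153 to 322 and 159 to 184 counts. Its log2 fold change of -0.87 (SE 0.20) did not pass with edgeR (adjusted p = 0.114), and it passed with DESeq2 (adjusted p = 0.00419) and in 1 edgeR fit over all libraries of the set (adjusted p = 0.00311). Robo4 was the third member whose diaphragm libraries did not overlap, at 19.7, 20.7, 24.3 and 19.4 TPM in wt and 16.7, 17.9, 14 and 17.5 TPM in mutant libraries (log2 -0.36, SE 0.09, edgeR adjusted p = 0.150). DESeq2 gave it an adjusted p of 0.0233 at a fold below the limit. Of all genes tested in diaphragm 4.62% had every mutant library below every wt library. The other 5 tested members had log2 values between -0.28 (Robo2) and 0.19 (Slit2), and Slitrk5 was under 1 TPM in both genotypes.

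Markers of several cell types moved with genotype in the same diaphragm libraries. The skeletal muscle list was high in both genotypes, at 6241 to 10069 TPM summed in wt and 5495 to 8649 TPM in mutant libraries, with 0 of 10 genes called. Of 8 smooth muscle markers 4 were called lower in mutants, and the list summed to 2036 to 3272 TPM in wt and 1576 to 2385 TPM in mutant libraries. Myh11, the smooth muscle myosin heavy chain, read 96.4, 156, 39.1 and 53.5 TPM in wt and 5.43, 4.02, 2.81 and 4.79 TPM in mutant libraries (log2 -4.34, SE 0.46, edgeR adjusted p = 0.0068). Among 8 tested neuron markers 4 were called lower (summed 25.7 to 58.3 TPM in wt and 7.01 to 10.2 TPM in mutant libraries), among 8 Schwann cell and neural crest glia markers 3 (171 to 219 and 147 to 177 TPM), and among 9 tested airway epithelium markers 1 (62.3 to 256 and 47.1 to 82.5 TPM). Scgb1a1, an airway marker, had 0 counts in every diaphragm library, and no gene of the smooth muscle, neuron or glia lists was at 0 in a whole group. Of 18019 genes tested in diaphragm 2348 were under an unadjusted p of 0.05 by edgeR. So were 4 of 10 distal lung epithelium markers, all lower in mutants, and 0 of these were called. Among these 4, Nkx2-1 was at 14.6 ± 28.4 TPM in wt and 0.16 ± 0.18 TPM in mutant libraries (SD, n = 4 each). Sftpc was at 83.3 ± 159 and 3.49 ± 5.59 TPM, so that for both the wt SD was above the wt mean. Within the wt group, replicate 2 was highest for Slit3, Slitrk6, Myh11, Sox10 and Stmn2. Cartilage markers summed to 33.9 to 56.2 TPM in wt and 27 to 546 TPM in mutant libraries. The part of these markers in the lower Slit3 and Slitrk6 was not tested.

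**Figure D3:**
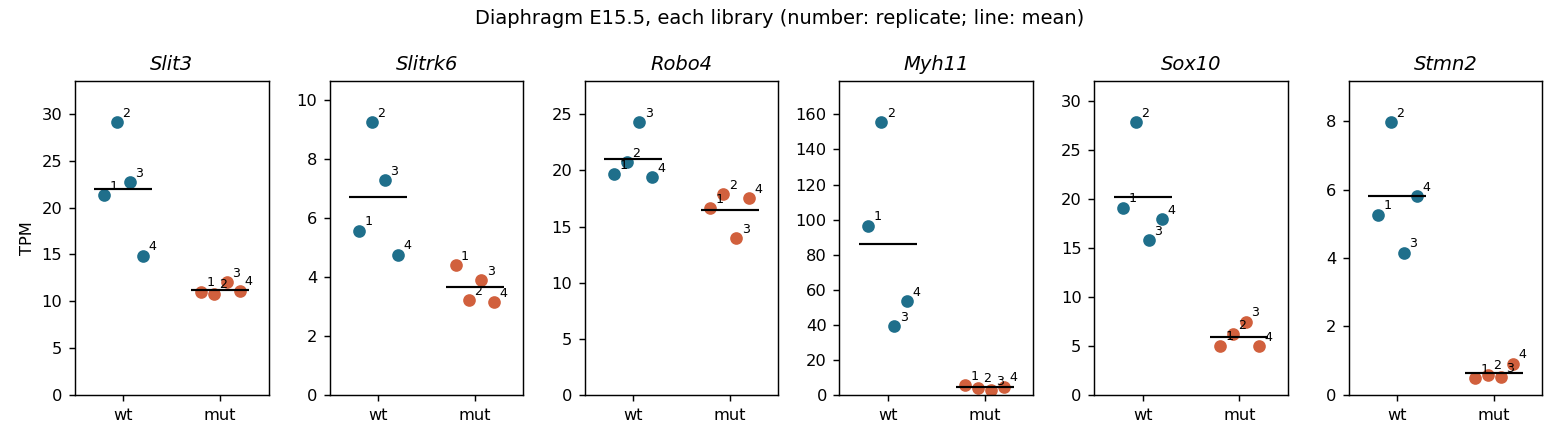
TPM of Slit3, Slitrk6, Robo4 and of the markers Myh11 (smooth muscle), Sox10 (glia) and Stmn2 (neurons) in each wt and mutant diaphragm library at E15.5, with replicate numbers beside the points and lines at group means. For all 6 genes every mutant library lies below every wt library, and wt replicate 2 is the highest wt library for 5 of them.

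Lung was the tissue in which Slitrk6 had been picked. At E12.5 it read 75.5, 70.2, 89.2 and 77.1 TPM in wt and 33.8, 48.7, 42.9 and 47.0 TPM in mutant libraries, so that the mutant mean was 55.3% of the wt mean (log2 -0.85), without overlap, as for 1.67% of all genes. At E15.5 the wt libraries read 22.9, 21.9, 27.1 and 28.02 TPM and the mutant libraries 25.1, 37.9, 27.4 and 25.7 TPM, which overlapped (log2 0.33). The lowest mutant library at E12.5, at 33.8 TPM, was below the highest mutant library at E15.5, at 37.9 TPM, and the other 3 mutant libraries at E12.5 were above all libraries at E15.5. Among markers whose sums did not overlap between genotypes at E12.5 were those of cartilage, summed to 204 to 220 TPM in wt and 258 to 282 TPM in mutant libraries with Col9a1 and Col9a3 called higher of 7 tested, and of mesothelium, at 188 to 224 and 159 to 185 TPM with 0 of 5 tested called. Of the other tested cartilage markers, none called, Hapln1 (log2 -0.44, SE 0.10, edgeR adjusted p = 0.240) and Matn3 (log2 -0.40, SE 0.28) were lower in mutants. Cnmd (log2 1.29, SE 0.29), Col2a1 (log2 0.38, SE 0.11) and Sox9 (log2 0.28, SE 0.08) were higher. The part of the cartilage and mesothelium markers in the Slitrk6 level was not tested.

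None of the other members was called in lung. At E12.5, 0 of 7 passed with edgeR or DESeq2, where 0.0798% of all genes were called. Of all genes tested, 1406 of 17548 were under an unadjusted p of 0.05, and 0 of these 7 members were. Their log2 values lay between -0.01 and 0.21. Slit3 in particular was at 104, 97.1, 94.5 and 103 TPM in wt and 105, 100.0, 113 and 104 TPM in mutant libraries. At E15.5, 0 of 5 were called by edgeR or DESeq2 against 0.124% of all genes, and 1, Robo4, was under an unadjusted p of 0.05. Over all genes tested, 1123 of 17777 were under it. Robo4 read 51.9, 51.0, 53.4 and 50.5 TPM in wt and 41.3, 44.5, 46.3 and 22.9 TPM in mutant libraries, all mutant libraries being lower, as for 2.47% of all genes (log2 -0.35, SE 0.09, edgeR adjusted p = 0.372). Without mutant replicate 4 the log2 value was -0.26 (SE 0.05, edgeR adjusted p = 0.320). The 12 blood endothelium markers had a median log2 of -0.40 with 0 called, their sum being 1413 to 1716 TPM in wt and 772 to 1321 TPM in mutant libraries, and in diaphragm they had a median of -0.38 with sums of 428 to 548 and 312 to 411 TPM. Of 7 tested lymphatic endothelium markers in lung at E15.5, 2 were called lower, their list summing to 258 to 288 TPM in wt and 156 to 205 TPM in mutant libraries. These were Lyve1, a hyaluronan receptor gene, at 84.1 to 130.05 TPM in wt and 24.3 to 31.2 TPM in mutant libraries (log2 -1.79, SE 0.18, edgeR adjusted p = 0.0088), and the scavenger receptor gene Stab2 (log2 -1.57, SE 0.18, edgeR adjusted p = 0.0126). Of the other tested lymphatic markers, none called, Mmrn1 (log2 0.58, SE 0.20, edgeR adjusted p = 0.617) and Prox1 (log2 0.15, SE 0.23) were higher in mutants. Ccl21a (log2 -0.59, SE 0.19), Flt4 (log2 -0.28, SE 0.07) and Pdpn (log2 -0.25, SE 0.18) were lower. The part of both lists in the Robo4 values was not tested. Slitrk5, too low in lung at E15.5 to be tested, read 0.37, 0.30, 0.20 and 0.34 TPM in wt and 0.43, 0.64, 0.39 and 1.11 TPM in mutant libraries, or 9 to 23 and 21 to 40 counts. Such a lack of overlap upwards was seen for 0.495% of all genes tested, a set that leaves out Slitrk5 and other genes under 1 TPM in both groups.

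Trachea, somites and iBAT gave no call by edgeR or DESeq2. In trachea 0 of 9 members were called against 0.0156% of all genes. Of all genes tested, 1288 of 19220 were under an unadjusted p of 0.05, and so were 2 members. These were Robo2 (log2 0.40, SE 0.14, edgeR adjusted p = 0.682) and Robo1 (log2 0.35, SE 0.13, edgeR adjusted p = 0.736). Robo2 read 12.4, 13.4, 12.9 and 15.7 TPM in wt and 20.6, 18.6, 13.4 and 19.9 TPM in mutant libraries, which overlapped through mutant replicate 3. In somites at E10.5, 0 of 9 were called (0.0215% of all genes), with Slitrk2 at an unadjusted p of 0.0289 and a log2 value of -0.29 (SE 0.11, edgeR adjusted p = 0.391). There 2359 of 18573 genes tested were under an unadjusted p of 0.05. In somites at E12.5, 0 of 9 were called (0.00529% of all genes), and in iBAT 0 of 3 (0.00657% of all genes). Of all genes tested, 613 of 18906 and 376 of 15212 were under an unadjusted p of 0.05, and 0 members were in either. Their log2 values lay between -0.20 and 0.09 in somites at E12.5 and between -0.13 and 0.34 in iBAT.

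**Figure D4:**
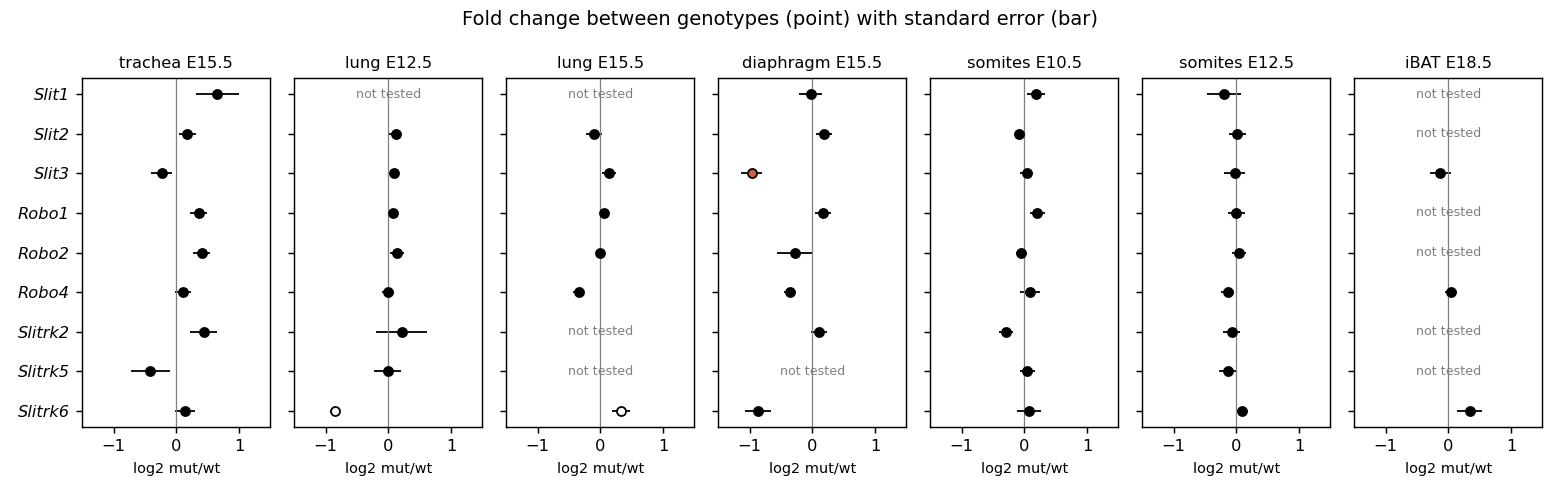
Log2 fold change of mutant over wt libraries (points) with its standard error (bars) for each gene in the 7 tissues and stages. The filled orange point is Slit3 in diaphragm, at -0.97, which passed the adjusted p and fold limits, and the open points are Slitrk6 in lung, at -0.85 and 0.33, shown without a test.

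Whether the effect of genotype differed between tissues was tested as an interaction, at an adjusted p under 0.05. Against lung at E15.5, the effect in diaphragm differed for 1 of 7 tested members (0.73% of all genes, 0.606% lower), Slit3, with log2 values of -0.97 in diaphragm and 0.13 in lung (difference -1.11, SE 0.20, edgeR adjusted p = 0.0197). Without lung mutant replicate 4 it was -1.11 (SE 0.22, edgeR adjusted p = 0.0397). Without lung wt replicate 2 the difference was -1.09 and the adjusted p by edgeR 0.0551. Against trachea, where Slit3 had a log2 value of -0.24, the difference of -0.71 did not pass (edgeR adjusted p = 0.323). For Slitrk6 the difference between diaphragm and trachea was -0.995 (SE 0.26, edgeR adjusted p = 0.130), which passed with DESeq2 (adjusted p = 0.0150). Neither was thus called by edgeR among 9 members, where 0.439% of all genes were. The comparisons of trachea with lung at E15.5 (0.00502% of all genes), of the 2 lung stages (0.0267%) and of the somite stages (0.0147%) had 0 members called by edgeR or DESeq2. The comparisons that involve lung at E15.5 share its libraries.

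The other genes of the pathway came from 2 lists, 28 partners of Slits, Robos and Slitrks (co-receptors, intracellular adaptors and the phosphatases Slitrks bind) and 25 netrin and semaphorin guidance genes. Between genotypes 0 of 28 partners tested in each tissue other than iBAT, where 26 were tested, and 0 of the 15 to 25 guidance genes tested were called by edgeR. Between wt groups some were called. In somites from E10.5 to E12.5, 11 of 28 partners rose and 3 fell, where 42.6% of all genes were called, with Cap2, an actin regulator, up by 1.93 (SE 0.08) and Ptprd, a phosphatase that binds Slitrks, up by 1.55 (SE 0.08) on the log2 scale. Nell2, a secreted ligand of Robo3, was higher than in lung by 4.94 (SE 0.28) in trachea and by 4.57 (SE 0.23) in diaphragm, in comparisons with 4 of 28 partners higher and 1 lower (30.2% of all genes called), and 9 higher and 5 lower (36.4% of all genes called). From E12.5 to E15.5 in lung, where 24.6% of all genes were called, 2 of 28 partners rose and 3 fell, and of 25 guidance genes 8 rose, such as the receptor Nrp1 (log2 1.12, SE 0.06), and 7 fell, such as the ligand Sema3a (log2 -0.75, SE 0.05).

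The relatives outside the 9 genes were Robo3, Slitrk1, Slitrk3 and Slitrk4. In wt trachea against lung at E15.5 the 3 Slitrks were higher by 2.08 (Slitrk4) to 6.14 (Slitrk1) on the log2 scale, and in diaphragm by 3.72 (Slitrk4) to 5.36 (Slitrk3), while Robo3, at 1.1 ± 0.10 TPM in lung (SD, n = 4), was lower in both. The lung means of these 3 Slitrks were under 1 TPM, so that their folds rest on low levels. In somites at E12.5 Slitrk1 was at 11.8 ± 0.9 TPM (SD, n = 4), above both Slitrk2 and Slitrk5. None was called between genotypes in any tissue by edgeR. Of their 15 tests 3 were under an unadjusted p of 0.05 by edgeR, all higher in mutants. Over all genes tested, 2348 of 18019 were under it in diaphragm, where 2 of the 3 lay, and 1288 of 19220 in trachea. Slitrk1 in diaphragm was at 1.57 ± 0.27 TPM in wt and 2.94 ± 0.52 TPM in mutant libraries (SD, n = 4 each), with a log2 value of 0.89 (SE 0.18, edgeR adjusted p = 0.0735). The others were Slitrk1 in trachea (log2 0.69, SE 0.20) and Slitrk4 in diaphragm (log2 0.24, SE 0.10).

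Likeness of pattern was measured as the correlation of log2(mean TPM + 1) over 14 group means, among 23490 genes. Slit3 and Slitrk6 were among each other's 5 nearest genes (r = 0.98), and both had Unc5c, a netrin receptor gene, among their 5 (r = 0.98 for each). The gene nearest to Slit3 was Gli1, a transcription factor of the Hedgehog pathway (r = 0.99). Nearest to Slit1 were the neural transcription factor gene Pou3f4 and Prmt8 (r = 0.99 each), and Nell2 was among the 5 nearest to Slitrk2 (r = 0.97). For Robo4 the nearest genes were Nrros and the protocadherin gene Pcdh12 (r = 0.98 and 0.97). The 12 blood endothelium markers varied widely in their correlation with Robo4, from r = -0.15 for Vwf (rank 16079) to r = 0.96 for Cdh5 (rank 7), genes named after their values were seen. These points include both genotypes of each tissue and 2 sequencing centres, so they are few and not independent. They also include the lung values by which Slitrk6 was picked. Over the 8 group means of trachea, lung and diaphragm alone, only 1 of the 45 genes listed stayed among the 5 nearest.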

How the data were processed

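PolyA-selected RNA-seq was measured in 57 libraries of 7 tissue and stage contexts. The deposited counts are whole reads per gene, and TPM was made by the authors from them per counted exon length. Per the labels and the study's methods, the authors trimmed with Trim Galore 0.6.5, aligned with STAR 2.7.9a to GRCm39 and counted with featureCounts 2.0.3. The strand setting of the counting is not given in the sources used here. Samples were grouped by tissue, stage and genotype from the labels. 0 columns were left unmapped, and 0 pairs of libraries were identical. The study calls the libraries biological replicates, and p-values measure the spread between them.

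Counts were fitted with edgeR 4.0.16 (TMM, quasi-likelihood test) in R 4.3.3, separately per comparison. Genes entered a fit when either group compared averaged 1 TPM or more, and Benjamini-Hochberg adjustment ran over all of them. A call took an adjusted p below 0.05 together with a 1.5-fold difference or more (interactions had no fold limit). SE values come from the log2 fold change and its F statistic. DESeq2 1.42.0, the authors' tool for these counts, was an alternative. Other alternatives were other size factors, a count filter of 10, no filter, no fold minimum, a replicate block, 1 fit per set, a term for Xist, and fits without each library in turn. On simulated counts for the diaphragm comparison, with 18019 genes, 67 of 100 genes changed 2-fold and 99 of 100 changed 4-fold were called. Same-numbered libraries deviated together in iBAT (r of 0.11 to 0.28 over 5 pairs) and between wt trachea and lung at E15.5 (0.14 to 0.49 over 4 pairs), and the block changed no call of a member there. Group levels, correlations, motif counts and figures used Python 3.11.15 with numpy 2.4.6, pandas 2.3.3 and matplotlib 3.10.9. Promoter and microRNA sequences are RefSeq's on GRCm38.p6, with 8 of 9 members having a promoter entry, and gene positions are from a GENCODE annotation of GRCm39. Named genes were the 9 members, the 4 relatives, up to 4 called genes with the lowest adjusted p per list and comparison, and the 5 genes nearest in pattern to each member. Epithelial markers named in diaphragm were picked after their values were seen. For the lymphatic list in lung at E15.5 and the cartilage list in lung at E12.5, all tested genes were named. Hoxa5 and Xist served as checks. The members and lists were chosen with earlier results of these data known. Counts are limited by reading depth, of 18369905 to 72991481 per library, and members under 1 TPM in both groups were not tested.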

Additional observations from a re-analysis of the deposited data

Results flagged for a closer look

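One result was marked because the effect of genotype differed between tissues by a test of the difference itself. Slit3 was lower in mutant diaphragm and not in mutant lung at E15.5, with a difference between the log2 fold changes of -1.11 (SE 0.20, edgeR adjusted p = 0.0197). The smooth muscle, neuron and glia markers that were lower in the same mutant diaphragm libraries moved with it, and their part was not tested. In 94 groups of 4 or 5 values of a member with a mean of at least 1 TPM, 0 had a lowest or highest value past the 95% limit of Dixon's test, where chance would mark about 1 in 20. Mutant replicate 4 of lung at E15.5, the lowest of its group for 5 members, was thus not marked for any single one.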

How the results depend on the processing

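Under settings that kept all libraries, 110 counts of called members stayed within 1.5 times the reported value and 3 did not. In diaphragm the count of 1 between genotypes became 2 with DESeq2 and 2 in 1 fit for the whole set, both with Slitrk6 added, and 0 to 1 when single libraries were left out. The difference of effects between diaphragm and trachea went from 0 to 1 with DESeq2 (Slitrk6), and that between diaphragm and lung from 1 to between 0 and 1 when single libraries were left out. The cause was not tested. Values close to 0 changed sign when single libraries were left out: Robo4 in lung at E12.5 between -0.088 and 0.052, Slit2 in wt diaphragm against trachea between -0.030 and 0.080, and Slitrk6 in wt trachea against lung, which has no test, between -0.063 and 0.075 on the log2 scale. The list of 45 nearest genes shared 1 gene with that over trachea, lung and diaphragm alone and 24 with that at a pseudocount of 0.1. Over all genes in diaphragm, 107 were called with edgeR and 406 with DESeq2.

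A replicate block gave 1 called member in diaphragm and 0 in every other comparison of genotypes, and 6 in wt trachea against lung, and it changed no call of a member between genotypes. Slitrk6 in diaphragm had an adjusted p of 0.0589 with the block. Outside iBAT and wt trachea against lung the same-numbered libraries did not all deviate together (correlations from -0.19 to 0.56). In diaphragm 3 of 4 wt libraries were nearest their own number (correlations from -0.06 to 0.53), so that a pairing there cannot be told from these values. Members with a mean under 1 TPM in both groups compared were not tested.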
